A study of Glycine max with 8 samples.

Results

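The 40 genes described here stood furthest above every later stage in elongating pods among the named soybean genes that were ranked. Genes with a symbol other than a locus number were ranked on the scale log2(scaled signal + 16). The rank was by the level in elongating pods minus the highest of the 3 other stage means. Before this, 240 named genes were left out, by symbols of several families and the single symbols VSPA, FLS1, CHR5, AP1A and AG1. Of the genes left out, AP1A and AG1 were also highest in pods. The first 40 of 713 ranked genes were taken, from 953 named genes and 33625 soybean probe sets with signal. The brightest probe set, the group of short probes that measures a transcript on the array, stood for each gene. The excess in pods is therefore what chose these genes, and it is given as a description with no test.

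The study followed transcripts through early seed development in soybean (Glycine max), cultivar Tamahomare, on 8 Affymetrix arrays, 2 for each of 4 stages. In developmental order the samples were pods at the start of elongation, pods together with their seeds when the bean measured 2 mm, seeds of 5 mm, and green seeds that were fully grown. The arrays of the middle stages are called bean 2 mm and bean 5 mm. All samples were of this cultivar and no treatment was named, and the design text asks how expression shifts between stages. Because whole organs were extracted, fewer cells of a type and less RNA per cell cannot be told apart. The labels do not say that the 2 samples of a stage came from separate plants, so the spread between them may be technical.

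A young pod is a leaf-like fruit wall that grows much faster than the seeds it encloses. Its cells enlarge by taking up water while their walls are loosened and rebuilt, and the green pod wall also photosynthesises and meets insects and microbes before the seeds do. Wall-modifying enzymes, gibberellin-responsive peptides, aquaporins, defence proteins and the enzymes of saponins and flavonoids are classes of gene commonly studied in such growing green organs.

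Array signals were brought to a common scale by giving each array an equal median over the tested soybean probe sets, those with signal, and the values below are scaled signals. Background is the level that 95% of pathogen probe sets, which the array carries beside the soybean ones, stayed under on that array. It lay between 5.62 and 6.68 in the first 3 stages and reached up to 18.6 in fully grown seeds. A dim transcript was thus measurable to a lower level in the earlier stages. Values of different genes come from different probes, so the genes are not ranked by level, and the sums over marker genes given below are led by the brightest probe sets.

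In elongating pods all 40 genes were above background on both arrays. For all 40 the lower of the 2 pod arrays exceeded the highest of the 6 later arrays, and this held for scaled and for deposited signals, for quantile normalized ones and for signals scaled to the hybridization controls. On the log2(scaled signal + 16) scale the excess over the highest later stage ran from 5.07 for STP to 1.71 for NIR. On this scale, which understates folds of dim signals, it came to at least 4-fold for 30 genes and at least 8-fold for 9. Among the 32 genes above background on both bean 2 mm arrays, the level left in 2 mm samples ran from 1.10% of the pod level for STP to 28.4% for GLYI-17. The highest of the later stages was 2 mm samples for 22 genes, 5 mm seeds for 7 and fully grown seeds for 11.

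**Figure D1:**
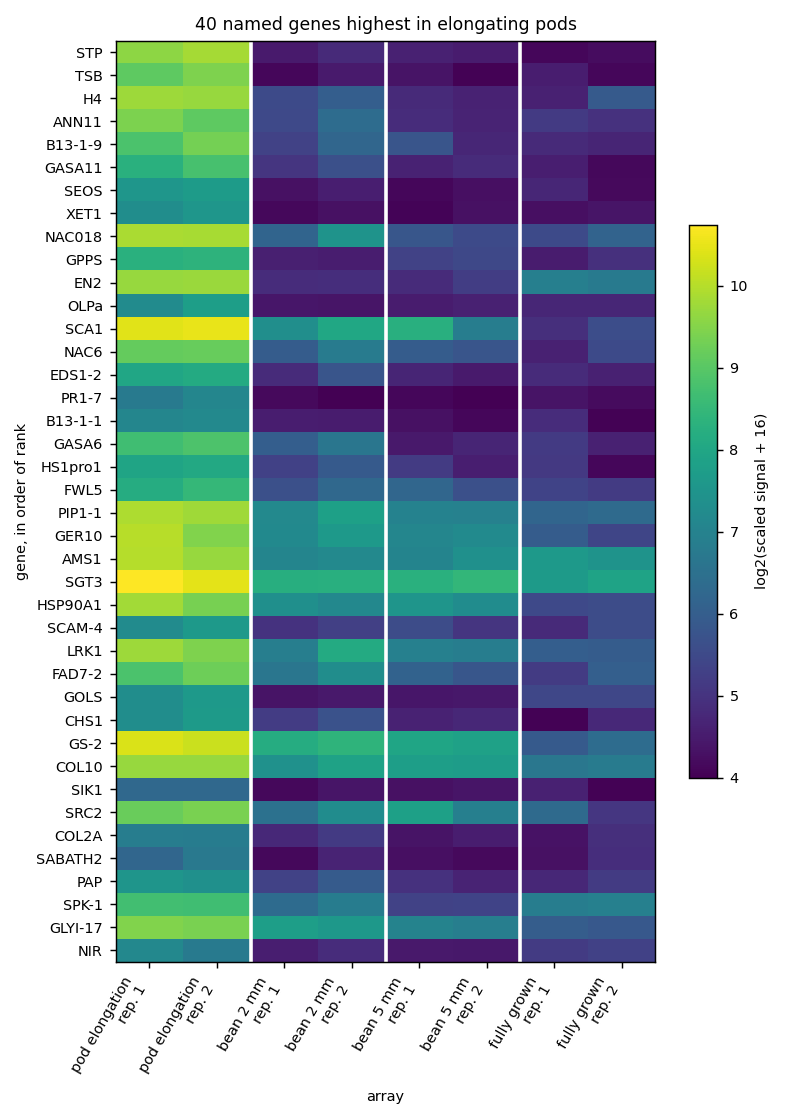
Colour gives log2(scaled signal + 16) of the 40 genes, in order of rank from top to bottom, on each of the 8 arrays, with the 2 arrays of a stage side by side. The 2 pod elongation columns are the brightest for every gene, and EN2, SPK-1 and AMS1 are among the genes still visible in the fully grown columns.

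High levels in pods were common on these arrays. Of the 33625 tested probe sets 7842 (23.3%) had their highest stage mean at pod elongation, and so had 214 of the 713 ranked genes (30.0%). An excess as large as that of the 40th gene was found for 957 probe sets (2.85%), 599 of which have no gene listed. Over all tested probe sets, that of STP ranked 31, and of the 30 above it 20 have no gene listed and 9 have 1. Near the boundary the excess was 1.87 for SABATH2, 1.82 for PAP, 1.79 for SPK-1, 1.74 for GLYI-17 and 1.71 for NIR, the last 5 inside. Just outside it was 1.71 for FAD2-3, 1.67 for PSK5, 1.63 for OLPb, 1.63 for ERD15 and 1.62 for SCAM-5.

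After elongation some of these transcripts were lost from view. Both arrays lay at or below background for 6 genes in 2 mm samples, for 8 in 5 mm seeds and for 15 in fully grown seeds. TSB, XET1, PR1-7 and SIK1 were below background on all 6 later arrays, while 14 genes stayed above it on all 6. All 40 passed the filter on dim probe sets, but 34 would have passed it without the pod arrays. Counts over the genes are therefore descriptions.

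The stages differed in more than age. Pods were part of the first pair of sample types and not of the others, and MAS5, the Affymetrix program that summarises probes into signals, is named only for the 5 mm and fully grown samples. Signals of the hybridization controls lay between 462 and 482 for pod elongation and 5 mm seeds and between 838 and 1032 for 2 mm samples and fully grown seeds. The 3' to 5' signal ratio of 1 actin control, a sign of RNA quality, was 62.5 and 66.9 in elongating pods, 45 and 63.9 in 2 mm samples, 35.8 and 48.1 in 5 mm seeds, and 35.2 and 27.2 in fully grown seeds. On the other actin control it was 2.05 and 2.09 in elongating pods, 3.64 and 3.60 in 2 mm samples, 2.07 and 2.22 in 5 mm seeds, and 2.73 and 4.8 in fully grown seeds, so the controls ordered the stages differently. The 5' set of the first actin control was dim, at 2.37 to 5.77 times background, against 38.5 to 109 times for the other. Ratios on the first control thus rest on a weak 5' signal. Stage, tissue, program, control level and actin ratio cannot be told apart.

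Tissue markers followed the labels only in part. The summed signal of 5 green tissue genes, RCA and CAB symbols, was 6950 and 6839 in elongating pods, 2006 and 2666 in 2 mm samples, 3988 and 4585 in 5 mm seeds, and 3646 and 4624 in fully grown seeds, and all 5 were highest in pods. The sum was thus lowest in 2 mm samples, which also hold pods. The embryo regulators LEC1-A and WRI1B and all 7 storage protein genes were below background in elongating pods. The storage proteins summed to 75288 and 83559 in fully grown seeds. The 3 seed coat genes, SCB1, HPS and ANR1, were all above background in elongating pods and summed to 1140 and 957 there, 6232 and 7555 in 2 mm samples, 8266 and 9080 in 5 mm seeds, and 7730 and 7757 in fully grown seeds. HPS was at 128 and 151 in elongating pods but at 7.06 and 5.15 in 2 mm samples. In fully grown seeds the seed coat sum was mostly HPS, at 7285 and 6954. SCB1 was at 433 and 801 there, and ANR1 was below background, at 10.7 and 2.19. Of 5 floral organ genes 3 were highest in pods, AGL3L, AP1A and AG1, while AGL1L and SEP1 were highest in 2 mm samples, and the 5 summed to 1351 and 1284 in elongating pods, 2080 and 2185 in 2 mm samples, 1707 and 1585 in 5 mm seeds, and 1598 and 1721 in fully grown seeds. The part of green tissue, seed coat, floral tissue or RNA quality in the excess of the 40 genes was not tested.

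Among 9 genes of growth, walls, water and calcium, XET1 encodes a xyloglucan endotransglycosylase, an enzyme that cuts and rejoins the xyloglucan chains of the cell wall. XET1 gave signals of 144 and 169 in elongating pods, 1.65 and 3.79 in 2 mm samples, 0.598 and 3.89 in 5 mm seeds, and 3.35 and 4.94 in fully grown seeds. Every later array was below background, so the pod level stood at least 26.2-fold above 2 mm samples, at least 24.7-fold above 5 mm seeds and at least 9.04-fold above fully grown seeds. No later difference could be read for this gene.

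GASA11 and GASA6 belong to a family of small cysteine-rich peptides whose transcripts respond to gibberellin. GASA11 was at 294 and 421 in elongating pods, 16.6 and 34.0 in 2 mm samples, 8.81 and 12.5 in 5 mm seeds, and 7.59 and 1.55 in fully grown seeds. Its arrays did not overlap between 2 mm samples and the later stages, and both fully grown arrays were below background. It fell by 0.99 ± 0.26 (SE) on the log2 scale in fully grown seeds against 2 mm samples, at least 1.38-fold by the background of the fully grown arrays (limma, adjusted p = 0.0101), a call lost without bean 2 mm replicate 2 (adjusted p = 0.0844). GASA6 was at 394 and 451 in elongating pods, 48.2 and 83.6 in 2 mm samples, 5.85 and 10.2 in 5 mm seeds, and 19.6 and 8.68 in fully grown seeds. Here both bean 2 mm arrays stood above all 4 later ones, and 1 of the 2 arrays of each later stage was below background. The fall in 5 mm seeds against 2 mm samples, -1.74 ± 0.25, had an adjusted p = 0.00295 (limma), the largest called fall of the 40 genes in that step on this scale.

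SEOS is named for sieve element occlusion, the plugging of phloem tubes by protein. It was at 171 and 191 in elongating pods, 3.84 and 7.68 in 2 mm samples, 1.43 and 3.36 in 5 mm seeds, and 10.6 and 2.03 in fully grown seeds. Of the 6 later arrays only 1, in 2 mm samples, was above background, so the pod level was at least 28.7-fold above 5 mm seeds and at least 10.5-fold above fully grown seeds.

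ANN11 is an annexin, a protein that binds membranes in the presence of calcium. It was at 667 and 519 in elongating pods, 28.6 and 67.3 in 2 mm samples, 12.9 and 9.48 in 5 mm seeds, and 19.7 and 15.1 in fully grown seeds. The bean 2 mm arrays were 2.36-fold apart and still stood above all later ones. ANN11 fell in 5 mm seeds against 2 mm samples, with a change of -1.17 ± 0.27 (limma, adjusted p = 0.0206). That call was lost without bean 2 mm replicate 2 (-0.72, adjusted p = 0.105), bean 5 mm replicate 1 (-1.26, adjusted p = 0.0719) or bean 5 mm replicate 2 (-1.07, adjusted p = 0.137). Its fall in fully grown seeds against 2 mm samples, -0.87 ± 0.27 (limma, adjusted p = 0.0229), was lost without either of bean 2 mm replicate 2 (-0.42) and fully grown replicate 2 (-0.77). SCA1 encodes a calcium-pumping ATPase of the plasma membrane. It was at 1384 and 1443 in elongating pods, 146 and 244 in 2 mm samples, 292 and 99.3 in 5 mm seeds, and 13.8 and 32.4 in fully grown seeds. The bean 5 mm arrays spanned those of 2 mm samples, while both fully grown arrays lay below all others. SCA1 fell in fully grown seeds against 5 mm seeds, with a change of -2.31 ± 0.42 (limma, adjusted p = 0.0018), and against 2 mm samples, with a change of -2.44 ± 0.42 (limma, adjusted p = 0.00118).

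PIP1-1 is an aquaporin of the plasma membrane, a channel through which water enters cells. It was at 944 and 866 in elongating pods, 128 and 212 in 2 mm samples, 111 and 109 in 5 mm seeds, and 57.8 and 64.6 in fully grown seeds. The stages did not overlap, each lying below the one before. The change in fully grown seeds was -0.71 ± 0.19 against 5 mm seeds (limma, adjusted p = 0.0139, but 0.0593 and 0.0662 without bean 5 mm replicate 1 and 2) and -1.24 ± 0.19 against 2 mm samples (limma, adjusted p = 0.00067). Of 14 PIP aquaporins measured, 4 were highest in pods, and the excess of the other 3, PIP1-6, PIP2-13 and PIP2-4, was 0.06 to 0.49 on the log2 scale, against 2.34 for PIP1-1.

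FWL5, named for likeness to the tomato fruit weight gene FW2.2, averaged 311 ± 49.7 (SD, n = 2, as for all means below) in elongating pods, 47.8 ± 19.7 in 2 mm samples, 46.6 ± 18 in 5 mm seeds and 22.8 ± 3.66 in fully grown seeds. It fell by 0.69 ± 0.26 in fully grown seeds against 2 mm samples (limma, adjusted p = 0.0478), a call lost without pod elongation replicate 1 or 2, bean 2 mm replicate 2 or fully grown replicate 1 or 2, with a change of -0.37 at the smallest. SCAM-4, a divergent calmodulin, averaged 159 ± 30.0 in elongating pods, 19.4 ± 4.91 in 2 mm samples, 24.2 ± 9.90 in 5 mm seeds and 21.8 ± 13.8 in fully grown seeds, with no call among the later stages. Of the 9 genes of growth, walls, water and calcium, 2 were called lower in 5 mm seeds against 2 mm samples, where 9.49% of all tested probe sets were called lower. In fully grown seeds 2 were called lower against 5 mm seeds, where 20.5% of all tested sets were, and 6 against 2 mm samples, where 23.6% were.

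**Figure D2:**
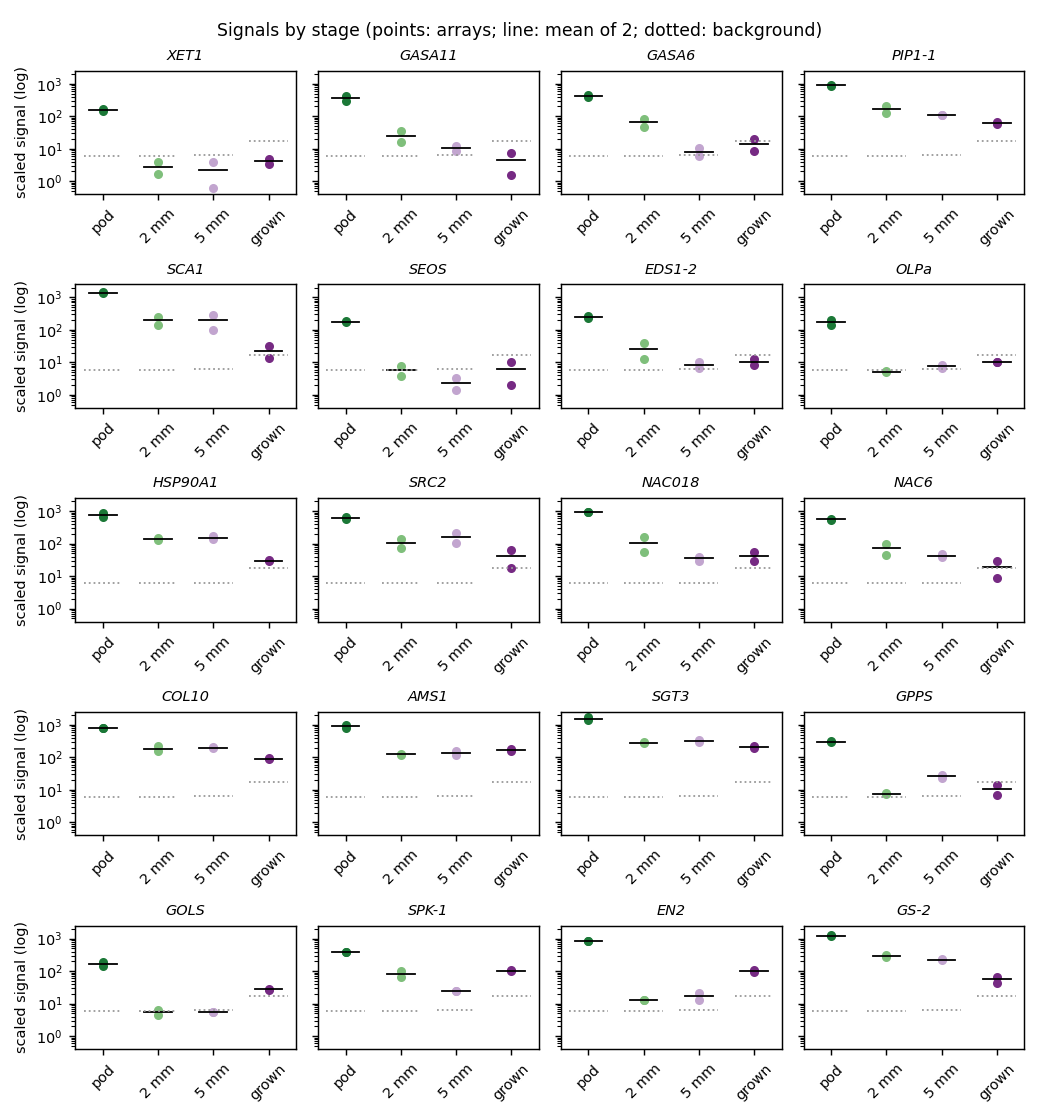
Scaled signal on a log axis for 20 of the 40 genes at pod elongation, bean 2 mm, bean 5 mm and in fully grown seeds, with 1 point per array, a black line at the mean of the 2 arrays and a dotted line at the mean background of the stage. SCA1, HSP90A1 and GS-2 stay well above background until bean 5 mm and are lowest in fully grown seeds, whereas EN2 and GOLS are higher in fully grown seeds than at bean 2 mm and bean 5 mm.

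Of 10 genes of defence and stress, B13-1-9 and B13-1-1 are named after transcripts induced by syringolide, a bacterial elicitor. B13-1-9 was at 442 and 631 in elongating pods, 24.2 and 59.3 in 2 mm samples, 38.9 and 10.6 in 5 mm seeds, and 11.7 and 9.82 in fully grown seeds. The arrays of 2 mm samples and 5 mm seeds overlapped, and both fully grown arrays were below background. It fell in fully grown seeds against 2 mm samples, with a change of -1.04 ± 0.37 and at least 2.20-fold (limma, adjusted p = 0.041). The call was lost without pod elongation replicate 1 or 2, bean 2 mm replicate 2, or fully grown replicate 1 or 2, where the adjusted p lay between 0.0587 and 0.273 and the change was -0.59 without bean 2 mm replicate 2. B13-1-1 averaged 124 ± 4.57 in elongating pods, 7.22 ± 0.279 in 2 mm samples, 2.58 ± 1.72 in 5 mm seeds and 6.78 ± 8.86 in fully grown seeds.

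OLPa is an osmotin-like protein, of a class with antifungal members. It was at 137 and 203 in elongating pods, 5.37 and 4.95 in 2 mm samples, 6.68 and 8.58 in 5 mm seeds, and 10.4 and 10.3 in fully grown seeds. The pod level was at least 28.1-fold above 2 mm samples and at least 9.70-fold above fully grown seeds, both below background, and the bean 5 mm arrays lay just above it. EDS1-2 is a lipase-like regulator of immune signalling. It was at 239 and 265 in elongating pods, 12.4 and 38.6 in 2 mm samples, 10.1 and 6.55 in 5 mm seeds, and 12.4 and 8.49 in fully grown seeds. Bean 2 mm replicate 2 stood alone among the later arrays, and no later difference was called.

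PR1-7, a pathogenesis-related protein of class 1, averaged 106 ± 19.9 in elongating pods, at least 17.7-fold above 2 mm samples, at least 16.7-fold above 5 mm seeds and at least 6.12-fold above fully grown seeds, and all 6 later arrays were below background. HS1pro1, named for a nematode resistance gene of sugar beet, averaged 242 ± 18.3 in elongating pods, 33.7 ± 14.4 in 2 mm samples, 14.0 ± 8.94 in 5 mm seeds and 10.1 ± 12.3 in fully grown seeds. It fell by 0.99 ± 0.34 in fully grown seeds against 2 mm samples (limma, adjusted p = 0.0366), a call lost without pod elongation replicate 1 or 2, bean 2 mm replicate 2 or fully grown replicate 2, with a change of -0.48 at the smallest. SABATH2, by its symbol of a methyltransferase family that acts on small acids such as salicylate, averaged 73.9 ± 21.4 in elongating pods, and 1 of its later arrays, in 2 mm samples, was above background.

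GER10, a germin-like protein of the cell wall space, was at 1017 and 698 in elongating pods, 132 and 180 in 2 mm samples, 121 and 135 in 5 mm seeds, and 46.2 and 26.5 in fully grown seeds. The 2 mm samples and 5 mm seeds overlapped, and fully grown seeds lay below both. The change was -1.48 ± 0.24 against 5 mm seeds (limma, adjusted p = 0.000812) and -1.73 ± 0.24 against 2 mm samples (limma, adjusted p = 0.000281).

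HSP90A1, a chaperone that folds signalling proteins, was at 876 and 642 in elongating pods, 147 and 127 in 2 mm samples, 166 and 140 in 5 mm seeds, and 28.7 and 31.5 in fully grown seeds. Its fully grown arrays were far below the 4 arrays of the middle stages, which overlapped. The change in fully grown seeds was -1.87 ± 0.17 against 5 mm seeds (limma, adjusted p = 2.96e-05) and -1.73 ± 0.17 against 2 mm samples (limma, adjusted p = 3.59e-05).

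SRC2, a cold-regulated protein with a calcium-binding C2 domain, was at 571 and 656 in elongating pods, 76.0 and 138 in 2 mm samples, 212 and 105 in 5 mm seeds, and 64.0 and 17.5 in fully grown seeds. The 2 mm samples and 5 mm seeds overlapped, and the replicates of each later stage lay far apart. The change in fully grown seeds was -1.68 ± 0.43 against 5 mm seeds (limma, adjusted p = 0.00981) and -1.20 ± 0.43 against 2 mm samples (limma, adjusted p = 0.0395). Without bean 5 mm replicate 1 the change against 5 mm seeds was -1.22 and no longer called (adjusted p = 0.084). That against 2 mm samples was no longer called without either pod elongation array (adjusted p = 0.0651 in each case), bean 2 mm replicate 2 (-0.83, adjusted p = 0.227) or fully grown replicate 2 (-0.57, adjusted p = 0.227), and in a fit to its own 4 arrays (adjusted p = 0.0667). Of the 10 genes of defence and stress, 3 were called lower in fully grown seeds against 5 mm seeds, beside 20.5% of all tested probe sets, and 5 against 2 mm samples, beside 23.6%.

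Of 4 transcription factors, NAC018 and NAC6 belong to the NAC family, whose members act in growth, stress and ageing. NAC018 was at 938 and 918 in elongating pods, 55.8 and 161 in 2 mm samples, 40.2 and 30.1 in 5 mm seeds, and 30.1 and 54.5 in fully grown seeds. The bean 2 mm arrays were 2.88-fold apart and stood above both later stages. It fell by 0.98 ± 0.37 in fully grown seeds against 2 mm samples (limma, adjusted p = 0.0476), a call lost on leaving out any single array other than bean 2 mm replicate 1 or fully grown replicate 2, with a change of -0.33 at the smallest. NAC6 was at 553 and 561 in elongating pods, 46.0 and 96.4 in 2 mm samples, 46.8 and 38.7 in 5 mm seeds, and 8.64 and 29.7 in fully grown seeds. Fully grown seeds lay below 5 mm seeds, which overlapped with 2 mm samples. It fell by 1.31 ± 0.32 in fully grown seeds against 2 mm samples (limma, adjusted p = 0.00746), a call lost without bean 2 mm replicate 2 (-0.89, adjusted p = 0.0615). Of 15 NAC genes measured 10 were highest in pods, and apart from NAC018 and NAC6 the excess was at most 1.16 on the log2 scale, for NAC4.

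COL10 and COL2A are CONSTANS-like zinc finger proteins, a family with roles in day-length and light responses. COL10 was at 825 and 817 in elongating pods, 153 and 220 in 2 mm samples, 203 and 196 in 5 mm seeds, and 86.9 and 95 in fully grown seeds. The middle stages overlapped and fully grown seeds were below them, with a change of -1.01 ± 0.16 against 5 mm seeds (limma, adjusted p = 0.000711) and with a change of -0.90 ± 0.16 against 2 mm samples (limma, adjusted p = 0.00118). COL2A averaged 99.0 ± 2.23 in elongating pods, 15.4 ± 5.70 in 2 mm samples, 5.93 ± 1.79 in 5 mm seeds and 9.05 ± 6.85 in fully grown seeds, with no later call.

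Of 8 metabolic enzymes, AMS1, a beta-amyrin synthase, makes the triterpene skeleton of soyasaponins, and SGT3 adds a sugar to these saponins. AMS1 averaged 912 ± 126 in elongating pods, 124 ± 7.78 in 2 mm samples, 134 ± 25.2 in 5 mm seeds and 174 ± 17.3 in fully grown seeds. SGT3 averaged 1544 ± 220 in elongating pods, 287 ± 1.52 in 2 mm samples, 317 ± 29.6 in 5 mm seeds and 207 ± 25.8 in fully grown seeds. SGT3 fell in fully grown seeds, with a change of -0.58 ± 0.14 against 5 mm seeds (limma, adjusted p = 0.00781) and with a change of -0.44 ± 0.14 against 2 mm samples (limma, adjusted p = 0.0245). The first call was lost without bean 5 mm replicate 2 (adjusted p = 0.0639), the other without bean 2 mm replicate 1 or 2 or fully grown replicate 1 (adjusted p between 0.0765 and 0.0969). AMS1 rose by 0.44 ± 0.16 against 2 mm samples (limma, adjusted p = 0.0394), but the change was -1.53 in deposited values and -1.69 when the hybridization controls set the scale. It was not called without either pod elongation array, either bean 2 mm array or fully grown replicate 1 (adjusted p between 0.0503 and 0.169), nor after quantile normalization (adjusted p = 0.0728) or in a fit to its own 4 arrays (adjusted p = 0.0617). SGT2, another saponin glycosyltransferase by its symbol and outside the 40, averaged 1442 in elongating pods, 308 in 2 mm samples, 430 in 5 mm seeds and 610 in fully grown seeds.

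GPPS, geranyl diphosphate synthase, makes a precursor of monoterpenes. It was at 293 and 310 in elongating pods, 8.02 and 7.38 in 2 mm samples, 24.0 and 28.4 in 5 mm seeds, and 7.05 and 14.5 in fully grown seeds. The 5 mm seeds stood above both neighbouring stages, and the fully grown arrays were below background. GPPS rose in 5 mm seeds against 2 mm samples, by 0.83 ± 0.17 (limma, adjusted p = 0.013), the only called rise among the 40 in that step, and fell in fully grown seeds against 5 mm seeds, with a change of -0.67 ± 0.17 and at least 1.51-fold (limma, adjusted p = 0.00999). The rise was not called without any one of the 4 arrays compared (adjusted p between 0.0504 and 0.109), nor the fall without bean 5 mm replicate 2 (adjusted p = 0.0686).

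GOLS, galactinol synthase, starts the synthesis of raffinose sugars. It was at 141 and 187 in elongating pods, 4.49 and 6.22 in 2 mm samples, 5.40 and 5.53 in 5 mm seeds, and 27.0 and 27.4 in fully grown seeds. The arrays of both middle stages were below background and those of fully grown seeds above it. The rise in fully grown seeds was 1.01 ± 0.16 against 5 mm seeds, at least 4.31-fold (limma, adjusted p = 0.000942), and 1.02 ± 0.16 against 2 mm samples, at least 4.57-fold (limma, adjusted p = 0.000778). With scaling to the hybridization controls, however, the changes were -0.01 and -0.04. For the values as deposited they were 0.36 and 0.06, neither called (limma, adjusted p = 0.118 and 0.773).

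CHS1, chalcone synthase, begins flavonoid synthesis. It was at 141 and 190 in elongating pods, 21.0 and 36.4 in 2 mm samples, 9.23 and 11.2 in 5 mm seeds, and 0.378 and 11.2 in fully grown seeds. The 2 mm samples stood above the later stages, and the fully grown arrays were below background. The change in fully grown seeds against 2 mm samples was -1.06 ± 0.27, at least 1.61-fold (limma, adjusted p = 0.00888), and was not called without bean 2 mm replicate 2 (-0.81, adjusted p = 0.0742).

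FAD7-2, an omega-3 fatty acid desaturase of plastids, was at 437 and 591 in elongating pods, 84.2 and 142 in 2 mm samples, 53.6 and 39.9 in 5 mm seeds, and 20.0 and 49.8 in fully grown seeds. The 2 mm samples lay above both later stages, which overlapped. It fell by 1.37 ± 0.31 in fully grown seeds against 2 mm samples (limma, adjusted p = 0.00506).

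GLYI-17, a glyoxalase I that detoxifies methylglyoxal, was at 695 and 651 in elongating pods, 203 and 178 in 2 mm samples, 114 and 102 in 5 mm seeds, and 47.3 and 41.6 in fully grown seeds. No stages overlapped, and the level declined at each. It fell by 0.73 ± 0.13 in 5 mm seeds against 2 mm samples (limma, adjusted p = 0.0065), fell by 1.04 ± 0.13 in fully grown seeds against 5 mm seeds (limma, adjusted p = 0.000174), and fell by 1.77 ± 0.13 against 2 mm samples (limma, adjusted p = 6.28e-06). The first of these calls was lost without bean 2 mm replicate 1 (adjusted p = 0.0521) or bean 5 mm replicate 2 (adjusted p = 0.0702). NIR, nitrite reductase of nitrogen assimilation, averaged 108 ± 23.5 in elongating pods, 10.3 ± 3.70 in 2 mm samples, 5.74 ± 0.417 in 5 mm seeds and 21.6 ± 2.37 in fully grown seeds. It rose in fully grown seeds by 0.79 ± 0.18 against 5 mm seeds (limma, adjusted p = 0.006) and by 0.52 ± 0.18 against 2 mm samples (limma, adjusted p = 0.0368). With scaling to the hybridization controls, however, these changes were -0.13 and -0.52. For the values as deposited they were 0.20 (limma, adjusted p = 0.383) and -0.51. The rise against 2 mm samples was not called without bean 2 mm replicate 1, either bean 5 mm array or fully grown replicate 2 (adjusted p between 0.0589 and 0.21), nor after quantile normalization (adjusted p = 0.0858) or in a fit to its own 4 arrays (adjusted p = 0.0808).

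The remaining 9 genes are a kinase, a gene listed as a histone, and genes whose role is not stated here. SPK-1 encodes a serine/threonine protein kinase. It was at 399 and 392 in elongating pods, 66.2 and 97.7 in 2 mm samples, 24.0 and 25.1 in 5 mm seeds, and 101 and 106 in fully grown seeds. The 5 mm seeds lay below their neighbours in development, with no overlap. SPK-1 fell in 5 mm seeds against 2 mm samples, with a change of -1.25 ± 0.16 (limma, adjusted p = 0.00197). It rose in fully grown seeds against 5 mm seeds, by 1.56 ± 0.16 (limma, adjusted p = 6.89e-05), but with scaling to the hybridization controls that change was -0.17.

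EN2 was at 824 and 829 in elongating pods, 12.7 and 13.3 in 2 mm samples, 12.7 and 21.5 in 5 mm seeds, and 105 and 92.1 in fully grown seeds. Fully grown seeds stood well above both middle stages. The rise was 1.80 ± 0.16 against 5 mm seeds (limma, adjusted p = 2.51e-05) and 1.98 ± 0.16 against 2 mm samples (limma, adjusted p = 1.12e-05), the largest called change upward of the 40 on this log2 scale in each comparison, where GOLS has only a lower bound on its fold. With scaling to the hybridization controls the changes were 0.14 (adjusted p = 0.536) and 0.26 (adjusted p = 0.24).

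GS-2 was at 1306 and 1168 in elongating pods, 275 and 321 in 2 mm samples, 233 and 215 in 5 mm seeds, and 43.8 and 67.8 in fully grown seeds. The stages did not overlap. It fell in fully grown seeds, with a change of -1.76 ± 0.17 against 5 mm seeds (limma, adjusted p = 4.38e-05) and with a change of -2.15 ± 0.17 against 2 mm samples (limma, adjusted p = 1.08e-05). LRK1 was at 848 and 682 in elongating pods, 103 and 265 in 2 mm samples, 106 and 101 in 5 mm seeds, and 48.9 and 46.9 in fully grown seeds. The 2 mm samples and 5 mm seeds overlapped. The change in fully grown seeds was -0.90 ± 0.32 against 5 mm seeds (limma, adjusted p = 0.043) and -1.52 ± 0.32 against 2 mm samples (limma, adjusted p = 0.00371). The call against 5 mm seeds was lost on leaving out any single array of pod elongation, 5 mm seeds or fully grown seeds (adjusted p between 0.0664 and 0.147), and the change against 2 mm samples was -0.89 without bean 2 mm replicate 2.

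STP, the gene with the largest excess on the log2 scale, was at 754 and 893 in elongating pods, 6.47 and 11.7 in 2 mm samples, 8.46 and 6.99 in 5 mm seeds, and 1.25 and 2.69 in fully grown seeds. The middle stages overlapped just above background and fully grown seeds were below it, with the pod level at least 47.6-fold higher than there. Its change of -0.47 ± 0.17 in fully grown seeds against 2 mm samples was called (limma, adjusted p = 0.037), but no fold can be given, since the background of the fully grown arrays exceeded the bean 2 mm signals. The call was lost on leaving out any single array other than bean 2 mm replicate 1 or fully grown replicate 2 (adjusted p between 0.056 and 0.221). TSB was at 519 and 676 in elongating pods, 1.36 and 6.29 in 2 mm samples, 4.43 and 0.380 in 5 mm seeds, and 7.16 and 1.43 in fully grown seeds. No later array was above background, and the pod level stood at least 99.5-fold above 2 mm samples, at least 93.8-fold above 5 mm seeds and at least 34.4-fold above fully grown seeds.

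The probe set listed as H4, a histone, was at 841 and 818 in elongating pods, 30.0 and 48.5 in 2 mm samples, 12.1 and 8.97 in 5 mm seeds, and 8.38 and 44.6 in fully grown seeds. The fully grown arrays spanned those of 5 mm seeds and overlapped with 2 mm samples, and no later difference was called. The main number of its identifier is shared with sets of VSPA, a vegetative storage protein, of which the brightest was at 4533 and 4634 in elongating pods. The other H4 set was below background on every array, at 0.848 and 5.48 in elongating pods, so a histone transcript is not established as the source of the signal. PAP averaged 160 ± 12.7 in elongating pods, 34.6 ± 14.4 in 2 mm samples, 12.2 ± 4.17 in 5 mm seeds and 15.4 ± 6.51 in fully grown seeds. It fell by 0.82 ± 0.23 in 5 mm seeds against 2 mm samples (limma, adjusted p = 0.0413) and fell by 0.67 ± 0.23 in fully grown seeds against 2 mm samples (limma, adjusted p = 0.0357). Without bean 2 mm replicate 2 these changes were -0.52 and -0.38, and both calls were lost without that array or either pod elongation array, the first also without either bean 5 mm array and the other without fully grown replicate 1. SIK1 averaged 61.6 ± 0.163 in elongating pods, at least 10.3-fold above 2 mm samples, at least 9.75-fold above 5 mm seeds and at least 3.57-fold above fully grown seeds.

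Only differences among the 3 later stages, whose order the choice of genes did not use, were tested. Their levels did enter the choice through the highest later mean, which was that of 2 mm samples for 22 genes. Shares of the 40 beside those of all tested sets are therefore descriptions. In 5 mm seeds against 2 mm samples 6 of the 40 genes were called, 1 higher and 5 lower, or 15% of them, against 18.8% of all 33625 tested probe sets, 9.29% higher and 9.49% lower. The called share was near that of all probe sets, and the median change of the 40 was -0.26, against -0.05 over all tested. In fully grown seeds against 5 mm seeds 15 were called, 4 higher and 11 lower, or 37.5%, against 52.1% of all tested, where 31.6% were higher. Lower were 27.5% of the 40, against 20.5% of all tested, and the median change of the 40 was -0.07, against 0.14.

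In fully grown seeds against 2 mm samples 26 were called, or 65%, against 54.9% of all tested. Of these 22 were lower, 55% of the 40 against 23.6% of all tested, and 4 were higher, EN2, AMS1, GOLS and NIR. The median change was -0.63, against 0.11 over all tested. Of the 22 called lower, 18 had at least 1 fully grown array above background and 4, STP, B13-1-9, GASA11 and CHS1, had none. Without bean 2 mm replicate 2 only 10 were lower, 25% against 18.3% of all tested. A fit to the 4 arrays compared lost 10 calls, those of SRC2, SGT3, AMS1, STP, NAC018, FWL5, PAP, HS1pro1, NIR and ANN11 (adjusted p between 0.0535 and 0.112), and left 14 lower, 35% against 18.9% of all tested. Scaling mattered as well. With scaling to the hybridization controls 32 were lower, 80% against 86.5% of all tested, and for the values as deposited 32, 80% against 84.9%. These scalings moved the median over all tested sets to -1.48 and -1.42, and in fully grown seeds against 5 mm seeds to -1.36 and -0.64.

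Arrays of the 2 stages did not overlap for 21 of the 40 genes in 5 mm seeds against 2 mm samples, against 69.4% of all tested probe sets. The number was 24 in fully grown seeds against 5 mm seeds, against 73.6%, and 30 in fully grown seeds against 2 mm samples, against 74.6%. As shares of the 40 these are 52.5%, 60% and 75%, the last of them close to that of all tested. In the same order, 5, 7 and 5 of the 40 were below background at both stages compared.

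**Figure D3:**
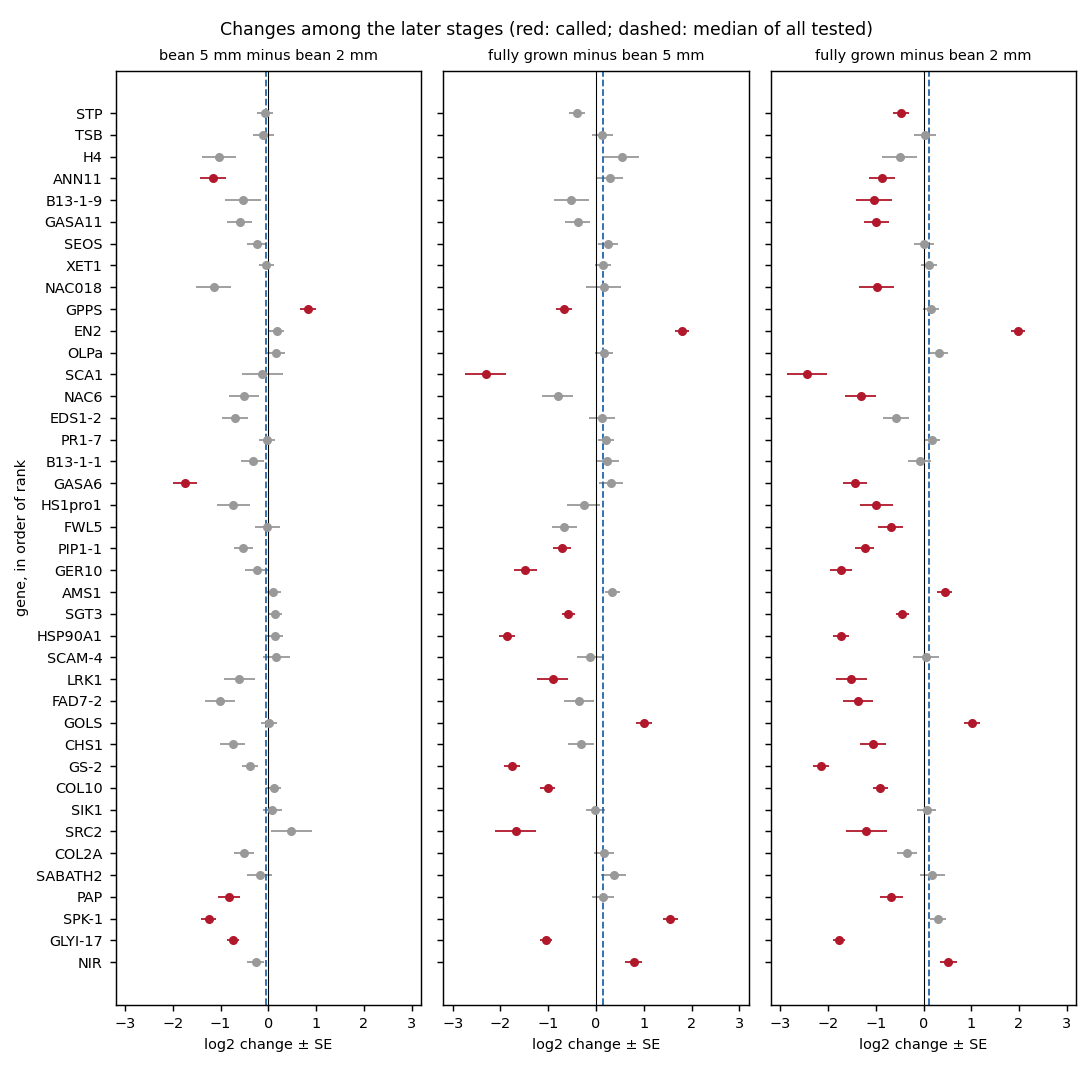
Log2 change ± SE from limma for each of the 40 genes at bean 5 mm minus bean 2 mm, fully grown minus bean 5 mm and fully grown minus bean 2 mm, with red points for changes at an adjusted p under 0.05, grey for the others and a dashed line at the median of all tested probe sets. Red points number 6, 15 and 26 from left to right, and in the right panel 22 of the 26 lie below 0.

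The 2 bean 2 mm arrays differed for these genes. Replicate 2 gave the higher signal for 34 of 40 (85%), with a median difference of 0.44 on the log2 scale. Over all tested probe sets replicate 2 was higher for 49.6%, and the median difference was -0.00. Of the 32 genes above background on both arrays 28 were higher on replicate 2, and 20 of these by at least 1.5 times. The exceptions among the 40 were GPPS, OLPa, PR1-7, B13-1-1, HSP90A1 and GLYI-17.

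The same direction was found in 80.1% of 906 other tested probe sets that stood as far above the later stages in pods, with a median of 0.28, so it was not particular to the named genes. Between replicates of other stages the share of the 40 that was higher on replicate 2 was 57.5% at pod elongation, 37.5% in 5 mm seeds and 52.5% in fully grown seeds. The brightest VSPA set was at 49.6 on bean 2 mm replicate 1 and 447 on replicate 2. Of the marker lists, 3 of 5 green tissue genes, 2 of 3 seed coat genes, 4 of 5 floral genes, 3 of 7 storage protein genes and 0 of 2 embryo regulators were higher on replicate 2. The sums on replicates 1 and 2 were 2006 and 2666 for green tissue, 6232 and 7555 for the seed coat, 2080 and 2185 for floral organs, 25.9 and 15.1 for storage proteins and 275 and 187 for embryo regulators. The actin ratios were 45 and 63.9 on the control with the dim 5' set and 3.64 and 3.60 on the other. The share of pod tissue in each 2 mm sample is not given in the labels, and its part in this difference, like that of RNA quality, was not tested. Bean 2 mm signals entered the choice of genes, and the values are a description.

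**Figure D4:**
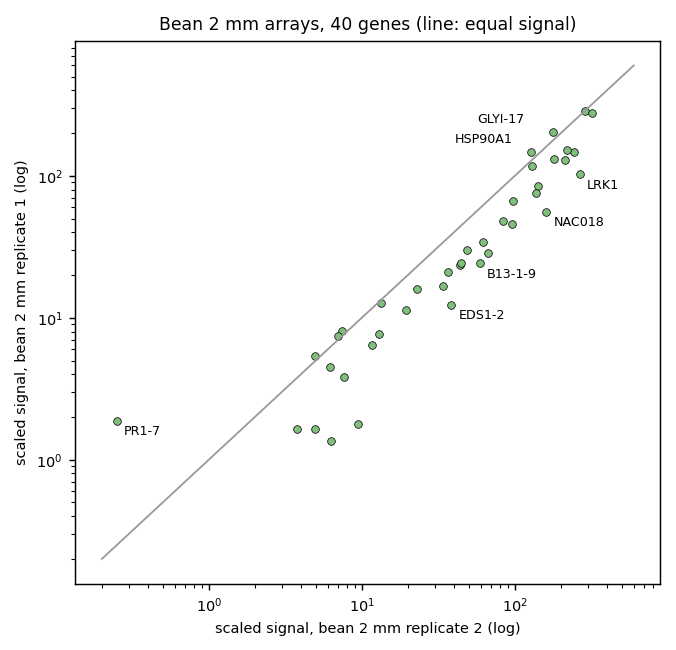
Scaled signals of the 40 genes on bean 2 mm replicate 2 (horizontal, log axis) and replicate 1 (vertical, log axis), with a line of equal signal. Of the 40 points 34 lie below the line, NAC018, LRK1 and EDS1-2 among the farther ones, and HSP90A1 and GLYI-17 lie slightly above it.

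Other probe sets of the same genes gave a second reading that the ranking did not use. For 15 of the 40 genes the array holds 25 further sets, of which 18 had their highest stage mean at pod elongation, 14 by at least 2-fold. Both sets share the arrays and often the transcript, and 11 of the 25 share the main number of the identifier, so they are not independent samples. For 11 genes every further set was highest in pods. HSP90A1 was at 539 and 387 in elongating pods on a further set, 28.9 and 30.5 in 2 mm samples, 47.6 and 33.0 in 5 mm seeds, and 7.15 and 7.07 in fully grown seeds, an excess of 3.08 against 2.19 on its brightest set. HS1pro1 was at 242 and 288 in elongating pods on its further set, with an excess of 2.73 against 2.41. GPPS was at 25.1 and 23.3 there on its further set and at 20.0 and 13.2 in fully grown seeds, an excess of 0.31 against 2.91.

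For 4 genes a further set went another way. That of COL10, and that of H4, were below background on both pod arrays. CHS1 had 6 further sets, of which 2 followed its brightest set, 2 were below background in pods and 2 were highest in 2 mm samples, with 10.5 and 8.13 in elongating pods and 27.0 and 28.7 in 2 mm samples on 1 of them. NIR had 1 set that followed, at 82.0 and 64.4 in elongating pods and 42.2 and 21.5 in fully grown seeds, and 1 below background in pods. The identifiers of 9 of the 40 brightest sets, those of H4, ANN11, OLPa, GER10, SCAM-4, FAD7-2, CHS1, COL10 and SABATH2, have endings that Affymetrix gives to sets able to match more than 1 transcript. The set of FWL5 shares its main number with sets of VSPA and of 2 aquaporins. Its further set has that main number too, and an ending for sets able to match more than 1 transcript. The further set gave 250 and 300.3 in elongating pods and at most 52.3 later, which does not settle the source of the signal.

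**Figure D5:**
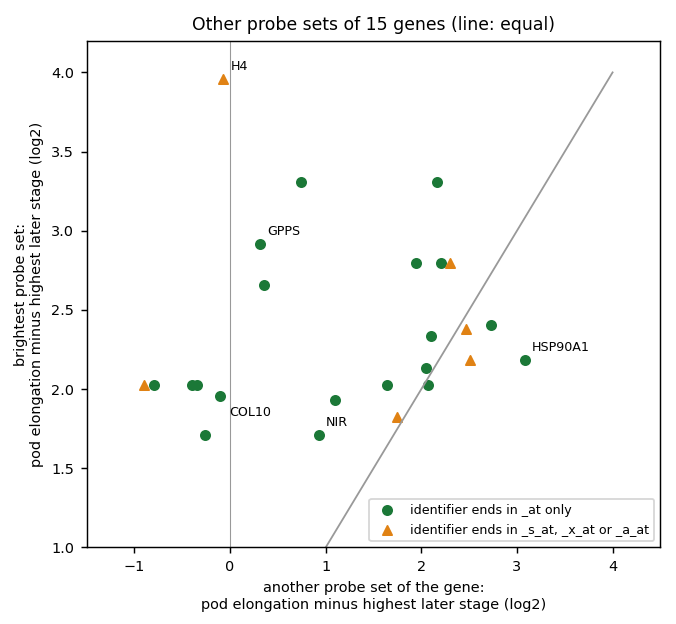
For 25 further probe sets of 15 of the 40 genes, the log2 excess of pod elongation over the highest later stage (horizontal) beside that of the brightest set of the same gene (vertical), with a line of equal excess and triangles for sets able to match more than 1 transcript. Most of the 18 sets right of 0 lie near or left of the line, HSP90A1 lies right of it, and those of H4 and COL10 lie near 0.

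Named genes were also grouped by kind, by symbol alone. Each list counts 0 to 3 of the 40, for which the choice of genes fixed that they were highest in pods. Of all 713 ranked genes 30.0% were highest in pods. Of 50 transcription factors 19 were highest in pods, and in fully grown seeds against 2 mm samples 15 were called higher and 14 lower. Of 13 cell wall genes, which the symbol rule let include PGM, 7 were highest in pods, and 3 were called higher and 7 lower, with a median of -0.55. PGM was highest in pods by 0.004 on the log2 scale and was called lower. Of 17 hormone genes, none among the 40, 8 were highest in pods, and 2 were higher and 10 lower, with a median of -0.78. Of 34 transport genes 9 were highest in pods, and 12 were higher and 14 lower. The symbol rule let that list include AAPT1, PTP1, PTI1, PTI1A, PTI1B and PTS1, the last also counted as a phenylpropanoid gene.

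Of 30 defence genes 15 were highest in pods, and 15 were higher and 9 lower in fully grown seeds against 2 mm samples. They include ribosomal proteins, SGT2, SGT3 and PRO2 by chance of their symbols. The CHI symbols among them are also counted as phenylpropanoid genes, and the PRP symbols as cell wall genes. Of 22 phenylpropanoid genes 10 were highest in pods, and 10 were higher and 6 lower. Of 19 nitrogen genes, which the symbol rule let include GST3 and GST24, 8 were higher and 6 lower. Highest in pods were 2 of them, GS-2 and NIR, both among the 40. Of 10 light and carbon genes, which the symbol rule let include COI1 and COR genes, 4 were highest in pods, and 3 were higher and 5 lower. Of 19 kinases and receptors matched by symbol, a list that missed the kinase SPK-1, none was among the 40. In that list 6 were highest in pods, and 4 were higher and 9 lower. In the same comparison 31.3% of all tested probe sets were higher and 23.6% lower. By the order of genes in RefSeq, the closest of the 40, EDS1-2 and GASA11, lay 71 genes apart, and no pair were neighbours.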

How the data were processed

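The deposited values are linear signal intensities from Affymetrix soybean arrays, 1 per probe set and array, in a table of 61170 probe sets, and array medians differed, lying between 24.1 and 138. The submitters' processing notes name MAS5 for the 5 mm and fully grown samples. The sources used here name no program for the remaining samples.

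Of 37641 soybean probe sets 33625 were tested, those brighter on 2 or more of the 8 arrays than 95% of the 23394 pathogen probe sets there. Signals were scaled so that all arrays had the same median over the tested sets, and the log2 of the scaled signal plus 16 was analysed, a scale that understates changes of dim transcripts. Stage means were fitted to all 8 arrays in R 4.3.3 by limma 3.58.1, using lmFit and eBayes with a trend, and the 3 contrasts among the later stages were tested, two-sided, with Benjamini-Hochberg adjustment over all tested probe sets and a threshold of 0.05. The procedure was tested on simulated data with independent noise and no differences in scale between arrays. That test does not bear on the choice of scaling. A fold against a stage with neither array above background is given as "at least", by the background of that stage, and is left out where it would be under 1. The number of arrays limits the precision.

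Of 9047 probe sets with platform annotation 8677 have 1 gene and 370 several, and 8652 of those with 1 gene matched RefSeq (Glycine_max_v4.0), used for names and gene order only. A further 28594 soybean probe sets have no name here. All 40 genes are named, with every array's value for the first 15 by rank and for those called with a log2 change of at least 1. The genes and lists were chosen with earlier results of these data known. Alternatives were quantile normalization, the values as deposited, scaling to 9 hybridization controls, a pseudocount of 1, no filter, a replicate block, a fit to only the arrays compared, and leaving out each array. The deviations of same-numbered arrays from their stage means correlated at -0.0481 to 0.102, which was not taken as pairing.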

Additional observations from a re-analysis of the deposited data

How the results depend on the processing

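Where a value moved, the cause was not tested. Among the 40 genes 47 calls were made in the 3 comparisons, of which 24 remained without any single array and 23 were lost without at least 1, 16 of them without bean 2 mm replicate 2. For bean 5 mm against bean 2 mm the 6 called genes became 30 for the values as deposited, 18 with scaling to the hybridization controls, 10 in a fit to the 4 arrays compared and 2 to 12 with 1 array left out. The 6316 called probe sets of that comparison became 24480 as deposited (734 higher, 23746 lower, against 3125 and 3191), 9698 in the fit to 4 arrays and 1283 to 11440 with 1 array left out, and scaled to the hybridization controls it had 2734 higher and 6206 lower.

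For fully grown seeds against bean 5 mm the 15 called genes became 23 as deposited, 26 with scaling to the hybridization controls and 12 to 19 with 1 array left out. The 17512 called probe sets (10618 higher, 6894 lower) became 28999 with that scaling (615 higher, 28384 lower) and 12742 to 19846 with 1 array left out, and the split was 8515 and 8286 after quantile normalization and 1770 and 19876 as deposited. With scaling to the hybridization controls the change of GOLS turned to -0.0051 and that of SPK-1 to -0.17.

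For fully grown seeds against bean 2 mm the 26 called genes became 16 in the fit to 4 arrays and 14 to 24 with 1 array left out. The 18473 called probe sets (10530 higher, 7943 lower) became 29594 as deposited (1038 higher, 28556 lower), 29861 with scaling to the hybridization controls (780 higher, 29081 lower) and 14326 to 20281 with 1 array left out, and the split was 8774 and 9207 after quantile normalization. GOLS turned to -0.038 with that control scaling. With the replicate number as a block, 7, 16 and 22 of the 40 genes and 5738, 17183 and 18233 probe sets were called in the 3 comparisons in the order given. The block lost the call of PAP in the first (adjusted p = 0.0506) and those of B13-1-9, AMS1, FWL5 and NIR in the last (adjusted p between 0.0512 and 0.0624).

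Repeating the ranking kept 30 of the 40 genes in the first 40 at a pseudocount of 1, 31 for the values as deposited, 33 with scaling to the hybridization controls, 36 with the mean over the probe sets of a gene, 37 after quantile normalization and 37 to 39 with 1 array left out. Signal over background limits dim transcripts, above all in fully grown seeds.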
